A study of Mus musculus with 16 samples.

Results

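Cells labelled Primitive Streak, Anterior Primitive Streak or Nascent mesoderm were examined in chimeric mouse embryos made of Stat3 null and wild-type (WT) cells. Members were the cells to which the authors' label transfer gave one of these 3 names, that passed the RNA quality filter and that were not called doublets. There were 386 such cells among the 37841 cells used from 16 libraries: 255 Nascent mesoderm cells, 101 Primitive Streak cells and 30 Anterior Primitive Streak cells. At embryonic day (E) 7.5 they numbered 360 of 5038 cells, and the few cells with these names at E8.5 and E9.5 are described last.

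The null cells descended from embryonic stem cells (ESCs) with homozygous loss of Stat3 and a tdTomato reporter, injected into WT CD1 blastocysts, the same outbred background. The WT cells were the host's own, so they also included the extra-embryonic tissues. Several embryos were pooled at E7.5 and E8.5, dissociated and sorted by tdTomato, and 3′ transcripts were counted by unique molecular identifiers (UMIs). Every null cell came from cultured ESCs and every WT cell from the host blastocyst, so loss of Stat3 and descent from an ESC line cannot be told apart. At E7.5 there were 2 libraries of each genotype, here called WT A, WT B, null A and null B. By the labels these came from 2 embryo pools, each sorted into a WT and a null sample, and the study classed the E7.5 embryos by size as large or small. The letters are names only, because no cell's library name could be matched to a pool or a size class.

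The primitive streak is the region of the posterior epiblast where gastrulation begins. Under Nodal, Wnt and FGF signals its epithelial cells lose E-cadherin, undergo an epithelial-mesenchymal transition (EMT) and leave as nascent mesoderm, which spreads between epiblast and visceral endoderm and forms heart, blood, vessels and paraxial mesoderm. The anterior end of the streak gives rise to definitive endoderm and axial mesoderm. T (Brachyury), Eomes and the homeobox gene Mixl1 are transcription factors of the streak, and Mesp1 is the transcription factor that marks mesoderm as it leaves it. STAT3 is the transcription factor downstream of gp130 cytokine receptors.

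Over the series the median depth of a library ranged from 18205 to 57791.5 UMIs per cell, with 360 to 4327 cells per library. In total 1232 of 41832 cells that passed quality control (2.95%) had a barcode that also occurred in another library, including 9 of the members, 1 of which shared it within its own stage. At E7.5 every null member carried at least 1 tdTomato UMI, and the 2 WT-sorted Nascent mesoderm cells with such a UMI had been left out. In blood progenitors, where Stat3 was more abundant, it stood at 30.4 and 31.1 CPM (UMIs of a gene per 1000000 UMIs) in WT A and WT B and at 3.50 and 5.71 CPM in null A and null B, lower in null as labelled. In Nascent mesoderm Stat3 was sparse, with 1 and 16 UMIs in WT A and WT B and 0 and 5 UMIs in null A and null B. That made 4.36, 2.97, 0 and 2.89 CPM in this order, so null B was level with WT B there. These UMIs come from the 3′ end of the transcript, so they do not test the replaced exons.

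The share of these cells differed far more between libraries of one genotype than between genotypes. Nascent mesoderm made up 0.830% of WT A (6 of 723 cells, 95% exact binomial interval 0.305 to 1.80%) and 9.87% of WT B (176 of 1783, 8.53 to 11.4%). It made up 0.8287% of null A (18 of 2172, 0.492 to 1.31%) and 8.61% of null B (31 of 360, 5.93 to 12.0001%). WT A thus lay beside null A, and WT B beside null B. Primitive Streak cells showed the same split, with 0 of 723 cells in WT A, which allows a share of up to 0.415% by 3 counts of the total (95% exact upper limit 0.509%), 77 cells in WT B (4.32%), 3 in null A (0.138%) and 21 in null B (5.83%). Anterior Primitive Streak cells numbered 0 in WT A, 15 in WT B (0.841%), 8 in null A (0.368%) and 5 in null B (1.39%). These intervals and limits cover counting error only. The shares are of all cells of a library, which in WT included extra-embryonic cells of the host.

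**Figure D1:**
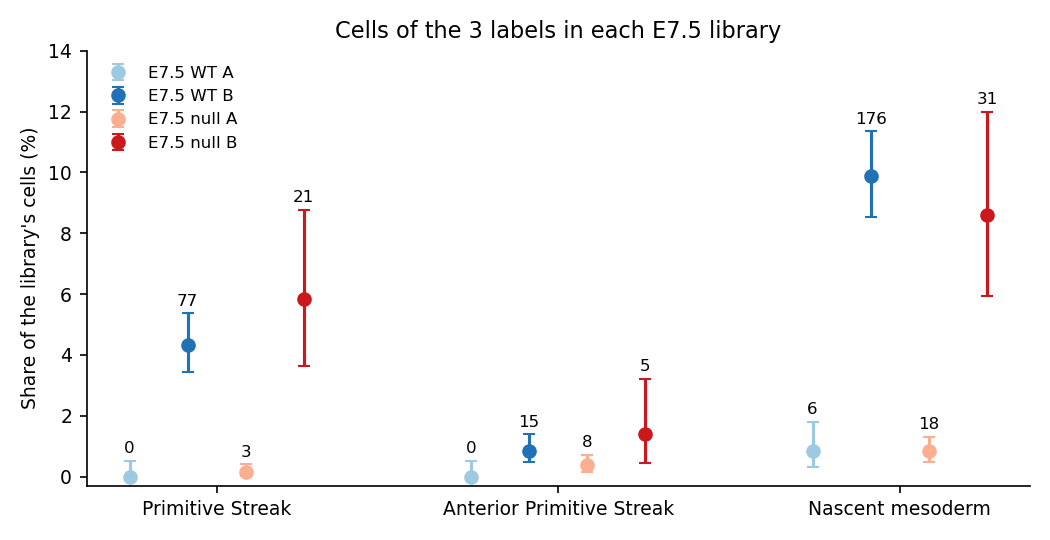
Share of the cells of each E7.5 library (percent, vertical axis) given each of the 3 labels, with 95% exact binomial intervals as error bars and the number of cells above each point. WT B and null B hold between 4.32% and 9.87% of cells in the Primitive Streak and Nascent mesoderm labels, while WT A and null A stay below 1%.

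No difference in abundance between genotypes passed the test. With edgeR's quasi-likelihood test on cell numbers at E7.5, 3 of 27 cell types were called (11.1%), and none of these 3 labels was among them. When only the 24 epiblast-derived cell types were tested, 0 were called. The log2 difference of null against WT was -0.64 for Nascent mesoderm (SE 1.41, adjusted p = 0.985), -0.069 for Primitive Streak (SE 3.29, adjusted p = 0.985) and 0.31 for Anterior Primitive Streak (SE 1.78, adjusted p = 0.985). These standard errors hold the spread between the embryo pools, which could not be a term of the fit. In any fit without 1 library, the lone library of a genotype is assumed to vary like the 2 libraries of the other. Leaving out WT B turned the Nascent mesoderm value to 2.39, and leaving out null A turned it to 0.49. Within the 3 labels together, Nascent mesoderm took 100% of the 6 cells of WT A, 65.7% in WT B, 62.1% in null A and 54.4% in null B. The null mean was 24.6 percentage points below the WT mean (the difference was -24.6 points, exact two-sided permutation p = 0.333, the smallest that 2 against 2 libraries can give). Without WT A the difference was -7.44 points.

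The cells mapped to the earliest stage on offer in each genotype. All but 1 of the 360 E7.5 members mapped to the E7.5 cells of the reference atlas. That was the earliest stage the authors used for mapping, so a match to an earlier stage could not be seen. The exception was an Anterior Primitive Streak cell of null A mapped to E7.75. The label score, the share of a cell's nearest atlas neighbours that agreed on the label, had a median of 0.90 in WT B and 0.92 in null B for Nascent mesoderm, but 0.48 in WT A and 0.52 in null A. For Primitive Streak it was 0.68 in WT B and 0.76 in null B. The cells of WT A and null A therefore carried their label with less agreement, and the values below are given per library for that reason.

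The 4 defining markers were present in Nascent mesoderm of WT B and null B, while Eomes and Mixl1 were lower in WT A and null A. Levels are CPM over the summed cells of a label in a library. Mesp1 (chromosome 7, 79792241 to 79793788, minus strand, GRCm38) stood at 200 CPM in WT A, 902 in WT B, 405 in null A and 806 in null B. T (chromosome 17, 8434423 to 8442496, plus strand) stood at 170, 231, 80.8 and 183 CPM in the same order. For neither gene did both null libraries lie on the same side of both WT libraries.

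Eomes and Mixl1 set WT B and null B apart from the others instead. Eomes was at 8.72 CPM in WT A, 143 in WT B, 15.9 in null A and 141 in null B. Mixl1 was at 17.4, 68.3, 23.1 and 138 CPM. Lefty2, a secreted Nodal inhibitor, was at 0, 290, 43.3 and 207 CPM, and Tdgf1, the Nodal co-receptor Cripto, at 4.36, 327, 4.33 and 437 CPM. Thus the 6 and 18 Nascent mesoderm cells of WT A and null A had Mesp1 and T but less Eomes, Lefty2 and Tdgf1 than those of WT B and null B. Summed UMIs of the label numbered 229487 in WT A, 5389389 in WT B, 693206 in null A and 1730562 in null B, so WT A is the least precise.

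Outside these labels T was not restricted to the streak, and Mesp1 was lower than in Nascent mesoderm. Caudal epiblast, the neighbouring posterior epiblast, had T at 218 to 488 CPM over its 4 libraries and Mesp1 at 11.4 to 77.0 CPM. Blood progenitors, a mesoderm derivative, had T at 3.37 to 11.4 CPM. Eomes was also high in the extra-embryonic ectoderm of the host, at 153 and 186 CPM.

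Primitive Streak cells had their highest marker level in Eomes. In WT B and null B respectively, Eomes stood at 267 and 304 CPM, T at 147 and 84.4, Mesp1 at 131 and 140, and Mixl1 at 26.8 and 86.1. The 3 Primitive Streak cells of null A went against their label, with 9.44 CPM of T and of Eomes, no Mesp1 or Mixl1 UMI, and 66.1 CPM of Foxa2, a transcription factor of endoderm and axial mesoderm. They are left out of the comparisons of Primitive Streak that follow.

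**Figure D2:**
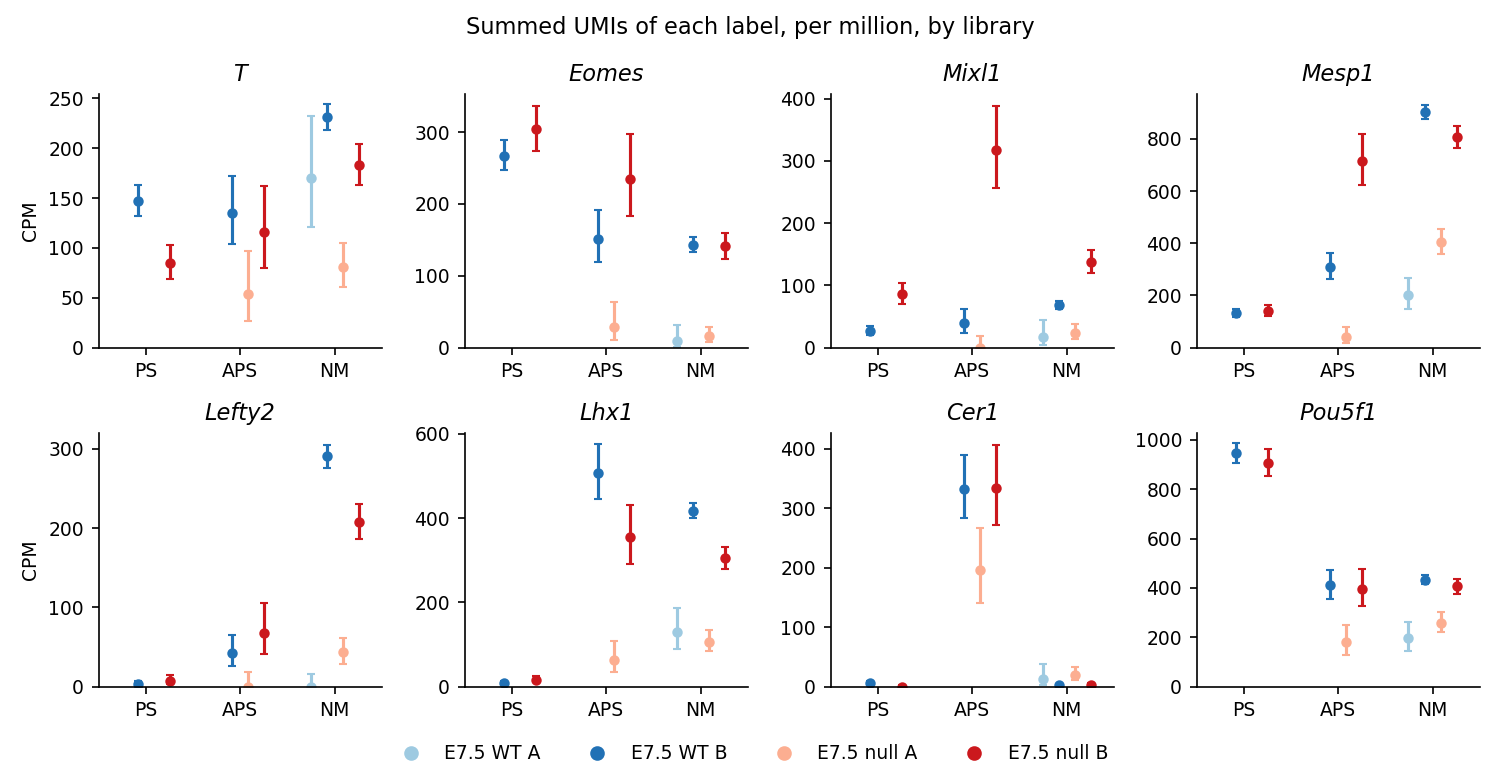
Level (CPM, linear vertical axes that start at 0) of T, Eomes, Mixl1, Mesp1, Lefty2, Lhx1, Cer1 and Pou5f1 in Primitive Streak (PS), Anterior Primitive Streak (APS) and Nascent mesoderm (NM) of each E7.5 library, with 95% exact Poisson intervals as error bars and without the 3 PS cells of null A. Mesp1 reaches 902 and 806 CPM in the NM of WT B and null B, against 131 and 140 CPM in their PS, and Eomes is higher in PS than in NM.

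Single cells showed the same order. Each cell was thinned to 10000 UMIs so that depth did not set the share of cells with a UMI. Among Nascent mesoderm cells, 98.3% in WT B and 96.8% in null B had a Mesp1 UMI (unthinned 99.4% and 96.8%), against 66.7% in null A (unthinned 88.9%) and 100% of the 6 cells in WT A. Among Primitive Streak cells the shares were 32.5% in WT B and 28.6% in null B (unthinned 62.3% and 33.3%). In blood progenitors of WT B, 19.4% of cells had a thinned Mesp1 UMI, a cell type past the streak, at a median of 35601 UMIs per cell against 28919 in Nascent mesoderm. Eomes was detected in 70.1% and 76.2% of Primitive Streak cells of WT B and null B, and in 56.3% and 51.6% of their Nascent mesoderm cells.

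T and Mesp1 were often seen in the same cell. A UMI of each occurred together in 57.4% of Nascent mesoderm cells of WT B, 58.1% in null B and 33.3% in null A, and in 22.1% and 28.6% of Primitive Streak cells of WT B and null B. T without Mesp1 was found in 1.14% of Nascent mesoderm cells of WT B in 0% of the 31 cells of null B and in 11.1% (2 cells) of null A. None of the 4 markers was seen in 0.568% (1 cell) of the Nascent mesoderm cells in WT B, 3.23% in null B, 22.2% in null A and 0% in WT A. In Primitive Streak that share was 16.9% in WT B and 19.05% in null B. All 4 markers were seen together in 18.8% and 25.8% of Nascent mesoderm cells of WT B and null B, and in 7.79% and 23.8% of Primitive Streak cells.

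**Figure D3:**
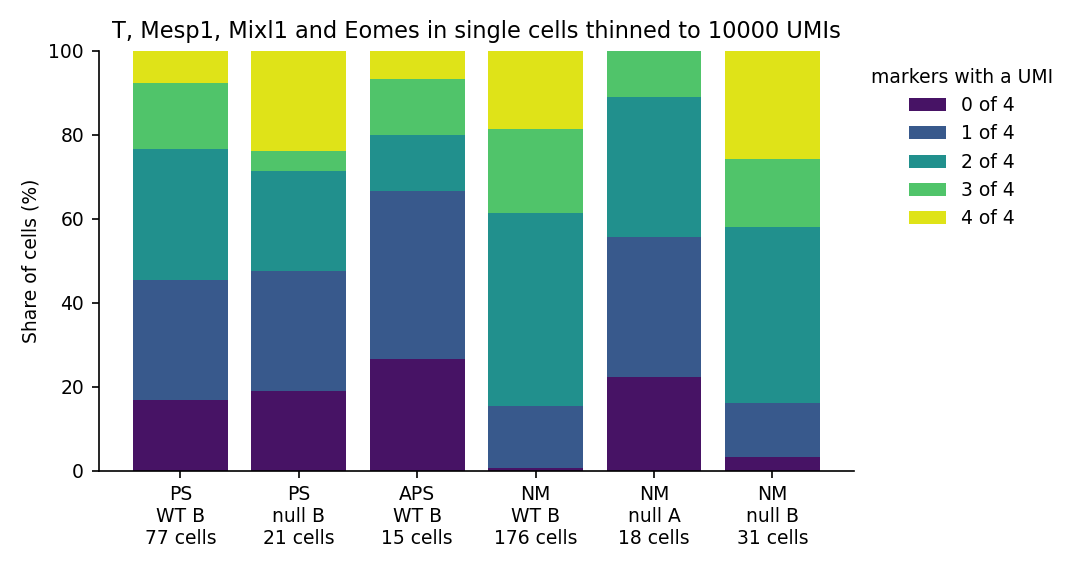
Share of cells (percent, vertical axis) in which 0, 1, 2, 3 or 4 of the markers T, Mesp1, Mixl1 and Eomes had a UMI after thinning to 10000 UMIs per cell, as stacked bars for each label (PS, APS and NM as above) and E7.5 library with 15 cells or more. In null A the share of Nascent mesoderm cells with 0 markers is 22.2%, against 0.568% in WT B.

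Each label had leading genes beyond the 4 markers. They are a description with no test, because the labels were assigned from the same expression values. The 10 genes with the largest ratio of Primitive Streak to the other E7.5 cells were Tdgf1, Eomes, Fst, Fgf5, Fgf8, Nanog, Apln, Pim2, Pmepa1 and Mixl1. Fst, which encodes the activin and BMP antagonist follistatin, stood at 559 CPM in WT B and 582 in null B, against 88.6 and 102 in the cells outside the labels. Nanog, a pluripotency factor that is expressed again in the posterior epiblast, stood at 49.7 and 79.4 CPM. Tdgf1 and Mixl1 were higher still in Nascent mesoderm than in Primitive Streak. Tdgf1 was at 327 against 123 CPM in WT B and 437 against 257 CPM in null B. Mixl1 was at 68.3 against 26.8 CPM and 138 against 86.1 CPM. For Nascent mesoderm the 10 were Lefty2, Mesp1, Tdgf1, Lhx1, Mesp2, Mixl1, Dll3, Eomes, Pcdh8 and Pcdh19, which add the Notch ligand Dll3 and a pair of protocadherins, adhesion proteins.

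The leading genes of Anterior Primitive Streak included the endoderm genes Cer1 and Sox17. Its 10 genes were Cer1, Tdgf1, Trh, Sox17, Lhx1, Fgf5, Eomes, Dgkk, Slc16a1 and Samd3. Tdgf1 ranked there through WT B (283 CPM) and null B (583 CPM), as its log2 difference in null A was -0.13. Cer1, a secreted antagonist of Nodal, BMP and Wnt, was at 333 CPM in WT B, 196 in null A and 334 in null B. Sox17, a transcription factor of endoderm, was at 146, 68.7 and 188 CPM. Against Primitive Streak the leading genes were Cer1, Lhx1, Sox17, Sfrp1, Krt8 and Amot, and against Nascent mesoderm Trh, Cer1, Sox17, Slc2a3, Cldn7 and Cldn6. Of the anterior streak markers Foxa2, Gsc, Lhx1 and Chrd, Lhx1 was at 506, 63.8 and 355 CPM in WT B, null A and null B. The others were lower than Lhx1 in WT B and null B. Foxa2 was at 67.5, 63.8 and 17.1 CPM, and Gsc (goosecoid, an organiser gene) at 12.7, 29.4 and 54.6 CPM. Chrd, the BMP antagonist chordin, was at 14.8, 9.81 and 3.41 CPM.

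Anterior Primitive Streak cells of null A resembled the other libraries less. Their T level was 54.0 CPM, against 135 in WT B and 116 in null B, and Lhx1 was at 63.8 CPM, against 506 and 355. Mixl1 was at 0 in null A, 40.1 CPM in WT B and 317 in null B, and Mesp1 at 39.2, 310 and 716 CPM in that order. With 8, 15 and 5 cells in these libraries no genotype test was made for this label. The list of visceral and extra-embryonic endoderm markers summed to 230 CPM in WT B, 167 in null A and 235 in null B, where Spink1, a gene of visceral endoderm, had 162, 88.3 and 160 CPM. The part of visceral endoderm RNA in this label was not tested.

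The step from streak to mesoderm was described within WT B and within null B, the libraries with more than 15 cells of both labels. Of 7865 genes at 10 CPM or more, 127 (1.61%) were over 2-fold higher in Nascent mesoderm in both libraries and 119 (1.51%) over 2-fold lower, on a scale of log2(CPM + 10). These were 84.1% of the 151 genes higher in WT B and 66.8% of the 190 higher in null B. For the lower genes the shares were 77.3% of 154 and 56.7% of 210. No gene was past 2-fold in opposite directions. The labels were assigned from these values, so the differences are no test of the labels, and they are given to show which genes the labels separate.

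Epithelial and mesenchymal adhesion genes separated the labels. Cdh1, which encodes E-cadherin, was at 9.46 CPM in Nascent mesoderm and 102 CPM in Primitive Streak of WT B, and at 11.0 and 82.7 CPM in null B. Cdh2, which encodes N-cadherin, was the reverse, at 137 and 25.1 CPM in WT B and 133 and 21.1 CPM in null B. The epithelial adhesion gene Epcam was at 97.2 and 560 CPM in WT B and 79.7 and 529 CPM in null B. Fn1, which encodes the matrix protein fibronectin, was at 565 and 69.3 CPM in WT B and 590 and 60.8 CPM in null B. The transcription factor genes Snai1 (68.1 and 17.9 CPM in WT B, 92.5 and 21.1 in null B) and Twist1 (78.9 and 3.83 CPM in WT B, 76.9 and 9.29 in null B), which drive EMT, were higher in Nascent mesoderm. Of 17 EMT genes above 10 CPM, 5 were over 2-fold higher and 4 over 2-fold lower in both libraries. Over all genes the shares were 1.61% and 1.51%.

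Epiblast and pluripotency genes were lower in Nascent mesoderm. Of 13 above 10 CPM, 8 were over 2-fold lower in both libraries and 1 was higher, beside 1.51% and 1.61% of all genes. The median log2 difference was -1.60 in WT B and -1.68 in null B, beside -0.017 and -0.028 over all genes. Dnmt3b, a de novo DNA methyltransferase of the epiblast, was at 242 against 1368 CPM in WT B and 198 against 1030 CPM in null B. Utf1, a chromatin factor of pluripotent cells, was at 9.09 against 162 CPM in WT B and 1.73 against 180 CPM in null B. Pou5f1, which encodes OCT4, was at 433 against 946 CPM and 407 against 907 CPM. The gene of this list that was higher was Tbx3, a T-box factor with roles in mesoderm as well, at 45.8 against 5.10 CPM and 61.3 against 6.75 CPM.

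Nascent mesoderm genes and those of later mesoderm were higher instead. Of 14 nascent mesoderm genes above 10 CPM, 11 were over 2-fold higher in both libraries and 0 lower, with medians of 2.10 and 1.96. Over all genes 1.61% were higher and 1.51% lower. Lhx1, a LIM homeobox factor, was at 418 against 8.93 CPM in WT B and 305 against 16.9 CPM in null B. Of 13 later mesoderm genes, 9 were higher and 0 lower, with medians of 1.82 and 1.79. Kdr, which encodes the VEGF receptor of vascular and blood precursors, was at 54.9 against 2.55 CPM and 82.1 against 2.53 CPM. Foxc2, a forkhead factor of paraxial mesoderm, was at 40.6 against 0.425 CPM and 52.6 against 0 CPM, and Pdgfra, a growth factor receptor of mesoderm, at 80.3 against 3.83 CPM and 84.9 against 2.53 CPM.

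Signalling genes past 2-fold in both libraries were counted by pathway, beside 1.61% of all genes higher and 1.51% lower. Among Notch genes, 4 of 11 were higher in Nascent mesoderm and 0 lower: the ligands Dll1 (61.6 against 5.10 CPM in WT B) and Dll3 (101 against 8.502 CPM), the receptor gene Notch1 (40.8 against 8.93 CPM) and the modifier Lfng (23.0 against 1.70 CPM). Among Wnt genes, 3 of 21 were higher and 1 lower, with the ligand Wnt5a at 42.7 against 3.83 CPM, the agonist Rspo3 at 171 against 36.6 CPM and the transcription factor Lef1 at 178 against 65.9 CPM in WT B. Among BMP genes, 2 of 15 were higher and 1 lower, and the lower one was Fst at 192 against 559 CPM. Among FGF genes, 1 of 17 was higher, the ligand Fgf3 at 153 against 14.03 CPM, and 1 was lower, the ligand Fgf5 at 18.0 against 74.8 CPM.

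Of 13 Nodal pathway genes 1 was higher and 1 lower, beside 1.61% and 1.51% of all genes. The ligand Nodal was at 0.557 CPM in Nascent mesoderm against 27.6 CPM in Primitive Streak of WT B, and at 0 against 19.4 CPM in null B. Its inhibitor Lefty2 was at 290 against 3.40 CPM in WT B and 207 against 7.60 CPM in null B. Of 13 streak regulators 0 were over 2-fold higher in both libraries and 2 lower, Nodal and the homeobox gene Nkx1-2, with medians of -0.23 and -0.33. The members differed in both directions, from Nodal at -1.83 in WT B and -1.56 in null B to Tdgf1 at 1.34 and 0.74 and T at 0.62 and 1.03. None of 39 S phase genes, 52 G2/M genes, 21 oxidative phosphorylation genes or 10 gp130, JAK and STAT response genes was past 2-fold in both libraries. Of 16 glycolysis and hypoxia genes, 1 was lower, the glucose transporter gene Slc2a3 at 55.7 against 255 CPM in WT B.

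**Figure D4:**
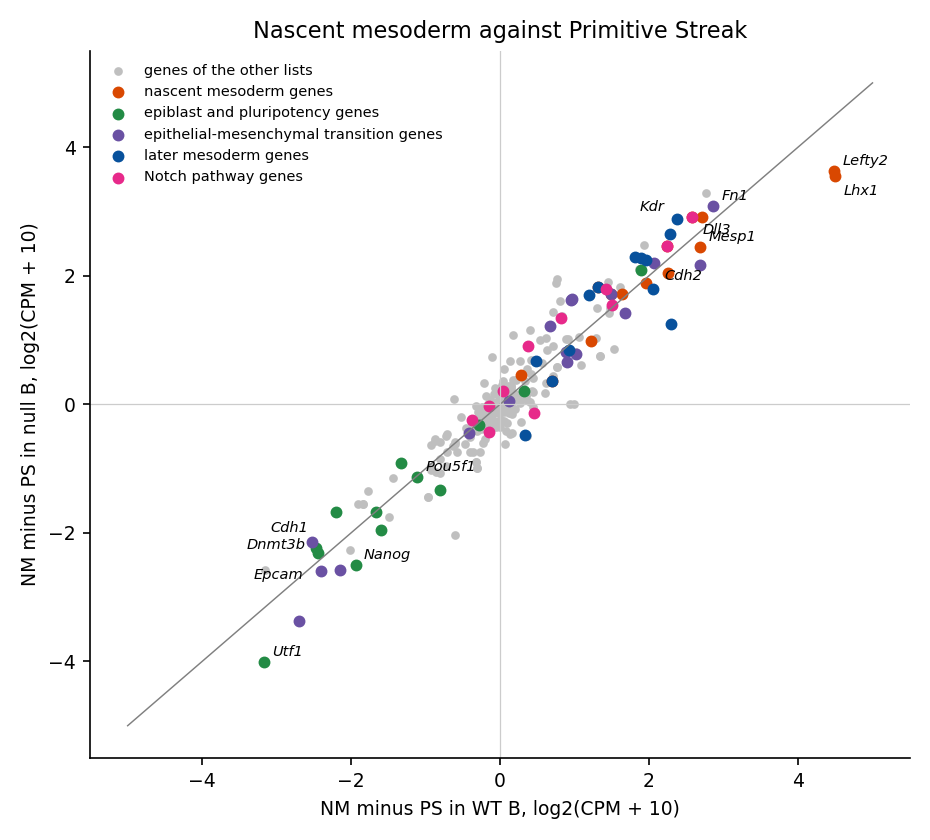
Difference between Nascent mesoderm (NM) and Primitive Streak (PS) in log2(CPM + 10), within WT B on the horizontal axis and within null B on the vertical axis, for list genes at 10 CPM or more, coloured by list, with the line of equal difference. Lefty2 and Lhx1 lie over 3.5 up on both axes, Utf1 lies below -3, and no gene is past 2-fold in opposite directions.

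Nascent mesoderm was the label in which null and WT could be tested, and few genes were called. Differences in genes that varied between libraries of 1 genotype could go without a call. The SE of the log2 change was 2.31 for Tdgf1, 1.72 for Lefty2 and 1.05 for Mesp1. No label had more than 15 cells in both libraries of each genotype, so the minimum was lowered to more than 5 cells after the cell numbers were seen. With edgeR's quasi-likelihood test, 3 of 7808 genes were called (0.0384%) at an adjusted p under 0.05 and a log2 change over 1. They were 0 higher in null (0%) and 3 lower (0.0384%). At an unadjusted p under 0.05 there were 65 genes higher (0.832%) and 91 lower (1.17%). DESeq2 called 2 genes, 0 of them higher, and limma-voom called 3, of which 2 were higher. The p-values measure the spread between libraries of 1 genotype, which came from different embryo pools.

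Grb10, an imprinted gene that encodes an adaptor restraining growth factor signalling, fell in null Nascent mesoderm. It lies on chromosome 11 (11930508 to 12038683, minus strand, GRCm38). It stood at 248 CPM in WT A, 177 in WT B, 1.44 in null A and 1.16 in null B, with a log2 change of -7.21 (SE 0.40, edgeR adjusted p = 3.25e-10). Over the group 3 UMIs were seen in null cells and 1011 in WT cells, a ratio of 0.00688. Its 95% exact interval, from counting error only, was 0.00142 to 0.0202. The same difference was present outside this label: epiblast had 158 CPM in WT B and 0 and 0.648 CPM in null A and null B, and caudal epiblast had 182 and 156 CPM in WT against 4.16 and 3.43 CPM in null. Grb10 was called in every other setting with all 4 libraries. The settings with no fold threshold and without null cells that lacked a tdTomato UMI repeat the main fit, since every null member carried one. Without any 1 library its log2 change lay between -7.34 and -7.02.

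Spink1 and Ttr, secreted protein genes of visceral endoderm, were the others that fell. Spink1 stood at 43.6 CPM in WT A, 33.8 in WT B, 1.44 in null A and 0.578 in null B (log2 change -5.28, SE 0.63, edgeR adjusted p = 0.000192). Ttr, which encodes transthyretin, stood at 21.8, 13.7, 0 and 0 CPM (edgeR adjusted p = 0.0333), with 79 UMIs in WT and 0 in null cells. The ratio of null to WT was 0 for Ttr, with a 95% exact upper limit, from counting error only, of 0.111. Visceral endoderm itself came from the host and was found in WT libraries, with Ttr at 3885 and 4273 CPM. In WT B, Ttr was also at 11.5 to 14.9 CPM in epiblast, caudal epiblast, blood progenitors and extra-embryonic ectoderm, where Spink1 was at 29.0 to 35.4 CPM. In WT A the levels outside Nascent mesoderm were lower, with Ttr at 7.05, 4.89 and 3.56 CPM and Spink1 at 12.5, 9.79 and 11.9 CPM in caudal epiblast, blood progenitors and extra-embryonic ectoderm. Spink1 lost its call by limma-voom (log2 -4.63, adjusted p = 0.0730) and with the 3 labels summed (log2 -1.33, edgeR adjusted p = 0.613). Summing added cells of the other labels in every library but WT A. Ttr, at log2 -7.92 in the main fit, lost its call by DESeq2 (log2 -6.57, adjusted p = 0.432) and by limma-voom (log2 -4.93, adjusted p = 0.0597). It also lost it with a label score of at least 0.5 (log2 -8.21, edgeR adjusted p = 0.763), a filter that left 2 cells in WT A. Without null B it was not called either (log2 -7.99). Ttr had 0 UMIs in each null library. Neither gene passed the filter on low counts without WT B.

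Spink1 and Ttr belong to the list of visceral and extra-embryonic endoderm markers. Of its 12 members 5 were tested, 0 were called higher and 2 lower. The other 7 were too low to test, and Ttr and Spink1 passed the filter on low counts through the WT libraries, so the counts over the tested members say nothing of the list. The list summed to 253 CPM in WT A, 117 in WT B, 102 in null A and 33.5 in null B, with 5, 1, 8 and 8 of the 12 genes at 0. Cited1, a transcriptional co-regulator, supplied 131, 30.4, 92.3 and 21.4 CPM of these sums and did not separate the genotypes. The part of free visceral endoderm RNA in the WT libraries in these calls was not tested.

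**Figure D5:**
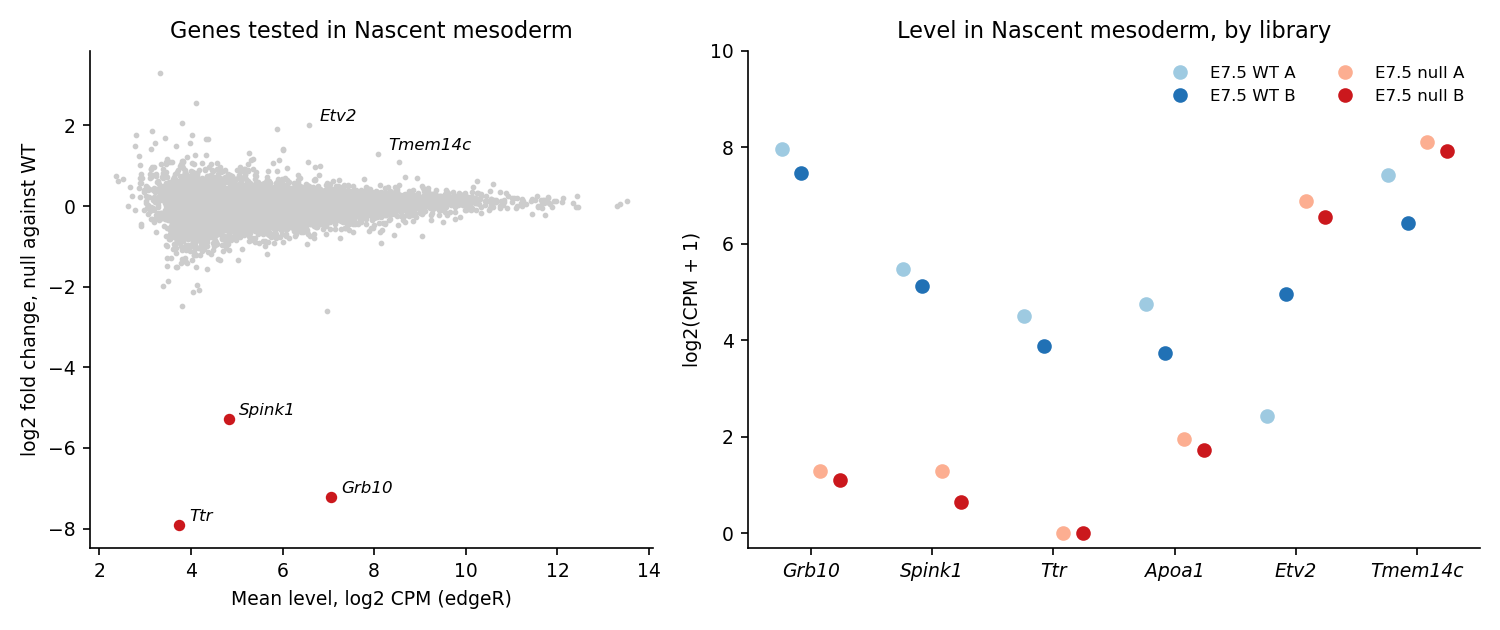
Left, log2 change of null against WT (vertical axis) by mean level in log2 CPM (horizontal axis) for the 7808 genes tested in Nascent mesoderm, with called genes in red; right, log2(CPM + 1) of 6 genes in each library. Grb10 stands at 248 and 177 CPM in WT and at 1.44 and 1.16 CPM in null, and Etv2 at 4.36 and 30.1 CPM in WT and at 117 and 93.6 CPM in null.

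Etv2 was the gene nearest to a call in the opposite direction. It encodes the ETS factor that specifies blood and endothelial precursors, lies on chromosome 7 (30633616 to 30635852, minus strand, GRCm38), and is named here after its values were seen as well as by its list. Etv2 was at 4.36 CPM in WT A, 30.1 in WT B, 117 in null A and 93.6 in null B, a log2 change of 2.01 (SE 0.34, edgeR adjusted p = 0.0938). Fits without any 1 library, each with a lone library in 1 genotype and so the spread of the other pair alone, gave edgeR adjusted p from 2.26e-06 to 0.00806. With all 4 libraries it passed by limma-voom (adjusted p = 0.0448) and with no filter on low counts (edgeR adjusted p = 1.59e-08). It did not pass by DESeq2, with a label score of at least 0.5 or with the 3 labels summed (adjusted p = 0.569 in edgeR). The score filter left 2 cells in WT A and 10 in null A, and summing added cells of the other labels in every library but WT A. The null libraries lay above the WT libraries for Etv2, as they did for 11.1% of all genes tested. Thinned to 10000 UMIs, 29.0% of cells in null B, 11.1% in null A, 16.5% in WT B and 0% of the 6 cells in WT A had an Etv2 UMI. Null A thus had a higher level than WT B but a smaller share of its 18 cells with a UMI. In Primitive Streak Etv2 was at 13.6 CPM in WT B and 16.9 in null B. The genotypes overlapped in blood progenitors, at 17.9 and 33.5 CPM in WT A and WT B and 22.3 and 40.0 CPM in null A and null B. They also overlapped in caudal epiblast, at 5.97, 13.4, 10.2 and 6.87 CPM in the same order.

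The other haematoendothelial markers gave little to test. Of 12 genes 3 were tested, all with a positive estimate, a median of 0.55 and 0 called. Kdr was at 26.1, 54.9, 27.4 and 82.1 CPM and Lmo2, a cofactor of blood development, at 4.36, 8.91, 17.3 and 8.67 CPM in WT A, WT B, null A and null B. Tmem14c, which encodes a mitochondrial protein needed for haem synthesis, was at 170, 85.0, 277 and 242 CPM (log2 change 1.29, SE 0.25, edgeR adjusted p = 0.1005). It was called by limma-voom (adjusted p = 0.0116) and with no filter on low counts (edgeR adjusted p = 0.000393). No other setting with all 4 libraries called it, such as DESeq2, a label score of at least 0.5 or the 3 labels summed. When 1 library was left out, its log2 change ran from 0.75 (without WT B, where it was not called) to 1.62 (without WT A). In Primitive Streak it was at 187 CPM in null B and 88.4 CPM in WT B. Tmem14c was also higher in null in other cell types, at 212 and 211 CPM in null and 148 and 126 CPM in WT caudal epiblast, and at 397 and 373 CPM in null and 216 and 263 CPM in WT blood progenitors.

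The streak and mesoderm genes themselves gave no call between genotypes with all 4 libraries. T had a log2 change of -0.55 (SE 0.41), Mesp1 0.079 (SE 1.05), Mixl1 0.67 and Eomes -0.22, with adjusted p of 1.00 in each case by edgeR's quasi-likelihood test. The direction for Mesp1, Mixl1 and Eomes depended on which libraries entered. Of 11 streak regulators tested 0 were called, 4 were positive and the median was -0.19, beside 0.0079 over all genes. Of 14 nascent mesoderm genes 0 were called, 8 were positive and the median was 0.14. Of 14 later mesoderm genes 0 were called and 12 were positive, with a median of 0.48. Gata6, a zinc finger factor of cardiac mesoderm and endoderm, was at 34.9, 47.5, 76.5 and 58.9 CPM in WT A, WT B, null A and null B (log2 0.60).

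Signalling lists likewise gave 0 calls in either direction with all 4 libraries. Among 12 Nodal genes tested the median was 0.11, and Smad4, the common partner of receptor-regulated SMADs, stood at 122, 140, 147 and 128 CPM over WT A, WT B, null A and null B. Among 20 Wnt genes the median was -0.022, with Ctnnb1, which encodes beta-catenin, at 314, 218, 189 and 226 CPM. Among 16 FGF genes it was -0.053, with the receptor gene Fgfr1 at 170, 104, 101 and 94.8 CPM. Among 16 BMP genes it was 0.032, with the target gene Id3 at 366, 217, 267 and 223 CPM. Among 10 Notch genes it was -0.13, with Rbpj, the DNA-binding partner of Notch, at 61.0, 62.9, 57.7 and 41.0 CPM.

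Genes of the pathway that lost its transcription factor showed no call with all 4 libraries. Of 21 gp130, JAK and STAT response genes 10 were tested, 0 were called, and the median log2 change was 0.073. Mcl1, a survival gene, was at 148, 152, 138 and 136 CPM in WT A, WT B, null A and null B, and Socs2, a feedback inhibitor of cytokine signalling, at 34.9, 147, 17.3 and 145 CPM. Pim1, a kinase gene induced by STAT factors, was at 43.6, 30.2, 86.6 and 41.6 CPM, and was called in the fit without null B. In 2 of the 10 genes, Mcl1 among them, the null values were the lower ones without overlap, beside 19.2% of all genes tested.

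Lists of general cell function gave 0 calls with all 4 libraries, apart from Grb10 among the imprinted genes. Of 51 G2/M genes tested 12 were positive and the median was -0.17. In 25 of them both null libraries were below both WT libraries, beside 19.2% of all genes. Top2a, which encodes the topoisomerase of mitotic chromosomes, was at 723, 514, 452 and 421 CPM in WT A, WT B, null A and null B (log2 -0.39, SE 0.18, edgeR adjusted p = 1.00). The list summed to 10519, 8803, 7607 and 8192 CPM. Of 39 S phase genes 28 were positive, with a median of 0.15, and the list summed to 6162, 5366, 6207 and 5695 CPM. Both null libraries were above both WT libraries in 11 of the 39, beside 11.1% of all genes, and below them in 5. The medians were 0.082 over 21 oxidative phosphorylation genes, -0.073 over 16 glycolysis genes and 0.045 over 16 EMT genes. H19, an imprinted noncoding RNA, was at 305, 93.7, 63.5 and 3.47 CPM and was not called (log2 -2.60, SE 1.77), except in the fit without null A. In caudal epiblast H19 was at 45.6 and 41.3 CPM in WT and at 6.09 and 1.14 CPM in null, and in blood progenitors at 691 and 688 CPM in WT and at 65.1 and 250.4 CPM in null. Epiblast genes (9 tested, median -0.17), anterior streak genes (5 tested, -0.22) and neuroectoderm markers (2 tested, -0.20) gave 0 calls, and no extra-embryonic ectoderm marker was high enough to test.

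The calls varied with the libraries and cells that entered, and the fits without a library rest on the spread of the complete pair alone. Without WT A, the library of 6 cells, 5 of 8744 genes were called (0.0572%): Grb10, Spink1, Ttr, Etv2 and Tmem14c. Without null B 22 genes were called, among them T (log2 -1.32, edgeR adjusted p = 0.0189), Bmp4, the mesoderm gene Tcf15, the Wnt inhibitor gene Sfrp1, the proliferation gene Mki67 and Pim1, from the 18 cells of null A as the lone null library. Without null A 9 genes were called, among them Mixl1 (log2 1.35, edgeR adjusted p = 0.00942), from null B alone. T and Mixl1 thus changed call on the choice of a null library. With the 3 labels summed per library, 2 of 8878 genes were called (0.0225%), Grb10 and Ttr.

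Primitive Streak could be set side by side in null B and WT B, 1 library of each genotype, so these differences have no replicate check. Of 7467 genes at 10 CPM or more, 20 (0.268%) were over 2-fold higher in null B and 20 (0.268%) over 2-fold lower. Grb10 was at 1.69 CPM in null B and 153 CPM in WT B, a ratio of 0.0111 (95% exact interval from counting error 0.00133 to 0.0403). H19 (3.38 against 42.1 CPM), Spink1 (0.844 against 41.7 CPM), Ttr (0 against 16.6 CPM) and Apoa1, an apolipoprotein gene of visceral endoderm (0 against 11.9 CPM), were also lower in null B.

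The higher genes of Primitive Streak in null B included 3 of the 12 streak regulators above 10 CPM, a list with a median log2 difference of 0.16, beside 0.268% of all genes. Mixl1 was at 86.1 against 26.8 CPM (ratio 3.22, 2.33 to 4.47), Fgf8, the FGF ligand needed for cells to leave the streak, at 230 against 102 CPM (ratio 2.24, 1.88 to 2.68), and Tdgf1 at 257 against 123 CPM (ratio 2.09, 1.77 to 2.46). Genes of the Nodal and TGF-beta pathways stood there too, such as Smad7, an inhibitory SMAD (47.3 against 12.8 CPM), Pmepa1, a feedback inhibitor of TGF-beta signalling (113 against 25.9 CPM), and Gsc (21.95 against 3.40 CPM). The ligand Nodal was not among them, at 19.4 against 27.6 CPM. T was at 84.4 against 147 CPM (ratio 0.576, 0.456 to 0.721), and Mesp1 (ratio 1.07, 0.878 to 1.29) and Eomes (ratio 1.14, 0.996 to 1.296) were close. Median depth was 57689 UMIs per cell in null B and 30301 in WT B. With 1 library each, genotype and library cannot be told apart.

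After E7.5 few cells bore these names, and most of the defining markers were at or near 0 in them. At E8.5 there were 4 Nascent mesoderm cells of 11348, with 3 UMIs of T in 2 cells and none of Mesp1, Mixl1 or Eomes. At E9.5 there were 20 Nascent mesoderm cells of 21455, 13 of them in the WT D library, with 2 UMIs of T, 1 of Mesp1 and none of Mixl1 or Eomes. Their label scores ranged from 0.16 to 0.52. The 2 Anterior Primitive Streak cells at E9.5 had 14 UMIs of Lhx1, 1 of Eomes and none of T, Mesp1, Mixl1 or Foxa2. No Primitive Streak cell was found at either stage. At E9.5 the log2 abundance difference of Nascent mesoderm was -1.37 (edgeR adjusted p = 0.974, with 1 of 71 cell types called, 1.41%). By the study's account, fewer embryos were collected at this stage than there were libraries of each genotype. Libraries of a genotype that share an embryo were therefore counted as replicates, and this p-value does not rest on independent embryos. The cells of these later stages did not enter the comparisons above.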

How the data were processed

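Single-cell RNA-seq of sorted chimera cells was taken from the UMI count matrix as deposited. The authors' submitted processing notes name Cell Ranger and mm10, and their methods give filters on UMIs, genes and mitochondrial RNA and doublet calling with scds. Label scores were taken as deposited, as a fraction from 0 to 1, and mitochondrial and ribosomal RNA as the percent the authors deposited. The members and gene lists were chosen with earlier results of these data known. Of 38437 singlets, 596 WT-sorted cells with a tdTomato UMI were left out. UMIs were summed per library and label, and 21275 of 29453 genes were kept by name. Counts were tested with edgeR 4.0.16 (quasi-likelihood, robust, TMM, filterByExpr), with DESeq2 1.42.0 and limma 3.58.1 as alternatives, after tests on simulated data. CPM are UMIs of a gene per 1000000 summed UMIs. The planned minimum of more than 15 cells in 2 libraries of each genotype was met by no label. Named genes were the 4 markers and Stat3, called genes, called members of each list or otherwise up to 3 of its most abundant, and the 10 and 6 leading genes per label. Other genes were named after their values were seen. Coordinates are GRCm38.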

Additional observations from a re-analysis of the deposited data

How the results depend on the processing

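Genes called between null and WT Nascent mesoderm numbered 3 in edgeR and 8 with no filter on low counts, and from 5 to 22 when 1 library was left out, the most without null B. Abundance at E7.5 kept no firm direction. Leaving out 1 library moved Nascent mesoderm from -3.48 to 2.39, Primitive Streak from -4.72 to 8.13 and Anterior Primitive Streak from -1.09 to 1.35 (log2), and DESeq2 gave 0.087 for Primitive Streak. Anterior Primitive Streak without WT B gave no value. E9.5 Nascent mesoderm lay between -1.71 and -0.70 without null A, null B or WT C, which hold 0 of its 20 cells, and no fit without WT D, which holds 13 of them, gave a value. For single markers, Mesp1 was -0.050 by limma-voom, -0.060 with the labels summed and from -0.54 to 1.76 when 1 library was left out. Mixl1 ranged from -1.27 to 2.47 and Eomes from -2.70 to 3.43 in the same way, with Eomes at 0.069 by DESeq2 and 0.023 with labels summed. Without thinning, shares with a UMI rose to 78.2% (T), 47.8% (Mixl1) and 66.2% (Eomes) in Nascent mesoderm and to 63.0% (T), 47.8% (Mesp1) and 89.4% (Eomes) in Primitive Streak. Cells that are not thinned hold more UMIs by construction, and the cause of the other changes was not tested. The settings of more than 50 cells and of 1 fit over the 3 labels were not run, as no label had enough cells. No paired analysis was possible because cells carry library names that occur in no sample title, and no library could be tied to a numbered pool.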
